A study of Homo sapiens with 6 samples.

Results

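The BBSome is a coat-like complex of the primary cilium, and 10 of its genes were followed here through total RNA sequencing of HEK293 cells, an established human line of embryonic kidney origin. They are 7 genes for BBSome subunits (BBS1, BBS2, BBS4, BBS5, BBS7, BBS9 and TTC8) and 3 for chaperonin-like proteins that help assemble it (MKKS, BBS10 and BBS12). The members were taken by name from a table of 60675 genes, and the set was built around BBS2, which had been picked because its counts were lower in the knockdown columns of this table. The knockdown against control values of BBS2 are therefore given as a description with no test. The other 9 members were chosen by what their proteins do, but with earlier results of these data known. The groups are 3 libraries labelled MOCS2 RNAi knockdown and 3 labelled control, whose genotype is given as wild type. MOCS2 encodes both subunits of molybdopterin synthase. Per the labels' protocols, cells of both groups grew in high-glucose DMEM with fetal bovine serum and Geneticin, an antibiotic that selects for a resistance gene. The sources used here name neither the kind of RNAi construct nor whether either line is 1 clone or a pool.

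As background, the primary cilium is a single antenna on the cell surface that holds receptors for signals such as Hedgehog. The BBSome travels with intraflagellar transport trains and carries membrane proteins, among them G protein-coupled receptors, out of the cilium, after the small GTPase ARL6 recruits it to the membrane. MKKS, BBS10 and BBS12 act with the cytosolic chaperonin TRiC on BBS2 and BBS7 early in assembly, and loss of any of these genes in people causes Bardet-Biedl syndrome, with retinal degeneration, obesity, extra digits and kidney disease.

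The promoter window of MKKS is shown first, because its values were lower in every library labelled knockdown than in every control, and that of BBS7 beside it, because its groups overlapped. Each window runs from 250 bases before to 50 bases after the start that RefSeq annotates (GRCh38.p14), read 5′ to 3′ on the gene's own strand. Capitals mark matches, on either strand, to the core of the NRF1 site (TGCGCA), an ETS core (CCGGAA), the CCAAT box (CCAAT) or an arm of the X-box (GTTGCC), the element bound by the RFX factors that control many ciliary genes.
MKKS, chr20:10434173-10434472, minus strand: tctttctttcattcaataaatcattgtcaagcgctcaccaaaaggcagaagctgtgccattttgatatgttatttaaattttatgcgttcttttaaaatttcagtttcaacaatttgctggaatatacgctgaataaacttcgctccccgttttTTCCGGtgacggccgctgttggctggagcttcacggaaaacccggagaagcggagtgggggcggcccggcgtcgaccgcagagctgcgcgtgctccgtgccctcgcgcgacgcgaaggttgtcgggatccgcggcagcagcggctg
BBS7, chr4:121870425-121870724, minus strand: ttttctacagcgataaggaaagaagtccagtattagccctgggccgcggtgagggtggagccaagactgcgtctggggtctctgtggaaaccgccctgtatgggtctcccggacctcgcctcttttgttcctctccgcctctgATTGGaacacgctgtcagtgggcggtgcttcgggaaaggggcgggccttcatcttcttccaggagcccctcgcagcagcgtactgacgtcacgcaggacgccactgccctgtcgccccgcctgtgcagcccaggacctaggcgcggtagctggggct

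RefSeq windows were found for 9 of the 10 members, all except BBS9, and MKKS and TTC8 have more than 1 window. The NRF1 core was in the windows of 2 of these 9 members, BBS2 and BBS4, and in 8.42% of all 27305 windows. All windows here means 1 window per gene, while members were searched in every window they have. The windows of all genes were not matched to those of the members by gene type or base content. The ETS core was in 5 of the 9 (BBS1, BBS4, TTC8, MKKS and BBS10) and in 17.6% of all windows, and the CCAAT box in 4 (BBS1, BBS7, TTC8 and BBS12) and in 35.7%. The ETS and CCAAT matches of TTC8 lie only in its additional window (chr14:88823903-88824202), and the shares leave additional windows out. The X-box arm was in 4 of the 9 (BBS1, BBS5, TTC8 and BBS10) and in 12.2% of all windows. A full X-box, searched as GTNNCC, then 1 to 3 bases, then NGNAAC, can hold this arm. It was in none of the 9 members' windows and in 4.3% of all windows. Of these motifs BBS2 and MKKS had none in common.

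Reads assigned to genes numbered from 17958632 to 19362299 in the libraries labelled knockdown and from 19895547 to 22171106 in the controls. Nothing in the labels ties the replicates to separate cultures, and p-values therefore reflect only how far these libraries spread, a spread that may be technical. The level of MOCS2 did not separate the groups. It stood at 69.8, 58.9 and 59.9 CPM (counts scaled to a common library size with TMM factors) in the libraries labelled knockdown, against 57.8, 66.6 and 65.6 CPM in the controls (log2 fold change -0.01, 95% interval -0.33 to 0.31, edgeR adjusted p = 0.976). The targeted gene thus goes against the label, and every difference given is between the libraries as labelled. Knockdown 2 had 37.5% of uniquely aligned reads assigned to no counted feature, while the other 5 libraries had 21.5% to 25.0%. Which features were counted is not given, so these reads may also lie inside genes. With all 6 libraries edgeR's quasi-likelihood test (two-sided, Benjamini-Hochberg adjustment over 18267 genes) called 0 genes at 0.05, while without knockdown 3 it called 1232 higher and 1583 lower.

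Marker genes were read as a check of the cell line. All 8 HEK293 markers passed the filter, led in CPM by VIM and KRT8, which encode intermediate filaments. Their summed level was 1941 to 2681 CPM in libraries labelled knockdown and 1541 to 1972 CPM in the controls. VIM alone was at 1017 to 1527 CPM under the knockdown label and 677 to 922 CPM in controls. The lowest were PAX2 (0.905 to 1.49 CPM under the knockdown label, 1.21 to 1.62 CPM in controls) and LHX1 (4.25 to 8.03 and 10.2 to 12.5 CPM). The sum thus rests largely on VIM and KRT8. The 9 fibroblast markers summed to 12.6 to 25.0 CPM under the knockdown label and 21.9 to 33.3 CPM in controls, with COL1A2, THY1, FAP and PDGFRB under 1 CPM in every library. The 5 blood and immune markers summed to 2.7 to 3.1 CPM under the knockdown label and 2.3 to 3.7 CPM in controls, most of it LYZ. The 16 markers of multiciliated cells, which build motile cilia, summed to 41.4 to 47.4 CPM under the knockdown label and 49.0 to 54.2 CPM in controls, and FOXJ1, their defining factor, stood at 0.739 to 2.60 CPM in libraries labelled knockdown and 0.404 to 1.26 CPM in the controls. Of these marker lists, 1 HEK293 gene (VIM) lay above every control and 2 below (LHX1 and NEFL), as did 1 fibroblast gene (LUM), 1 multiciliated gene (SPAG6) and 0 blood genes, where 14.3% of all tested genes lay below and 12.5% above. Their part in the results was not tested.

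BBS2 was the member with the widest gap between groups, which is what it was picked for. BBS2 (ENSG00000125124, chromosome 16, 56466836 to 56520283, minus strand, GRCh38) encodes a beta-propeller subunit that pairs with BBS7 in the complex. It stood at 20.5, 19.7 and 23.6 CPM in libraries labelled knockdown, against 42.3, 54.1 and 42.9 CPM in the controls. All 3 libraries labelled knockdown lay below all 3 controls, and knockdown 3 was as low as the others apart from a few CPM. The means were 21.3 ± 2.05 CPM in libraries labelled knockdown and 46.4 ± 6.63 CPM in the controls (SD, n = 3 each, as for every mean that follows), 0.458 of the control level. In bulk RNA, less of the transcript per cell and fewer cells with it cannot be told apart. The log2 fold change was -1.13. It was -1.21 without knockdown 3, -1.08 without knockdown 2 and -1.01 without control 2, the control with the highest value.

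**Figure D1:**
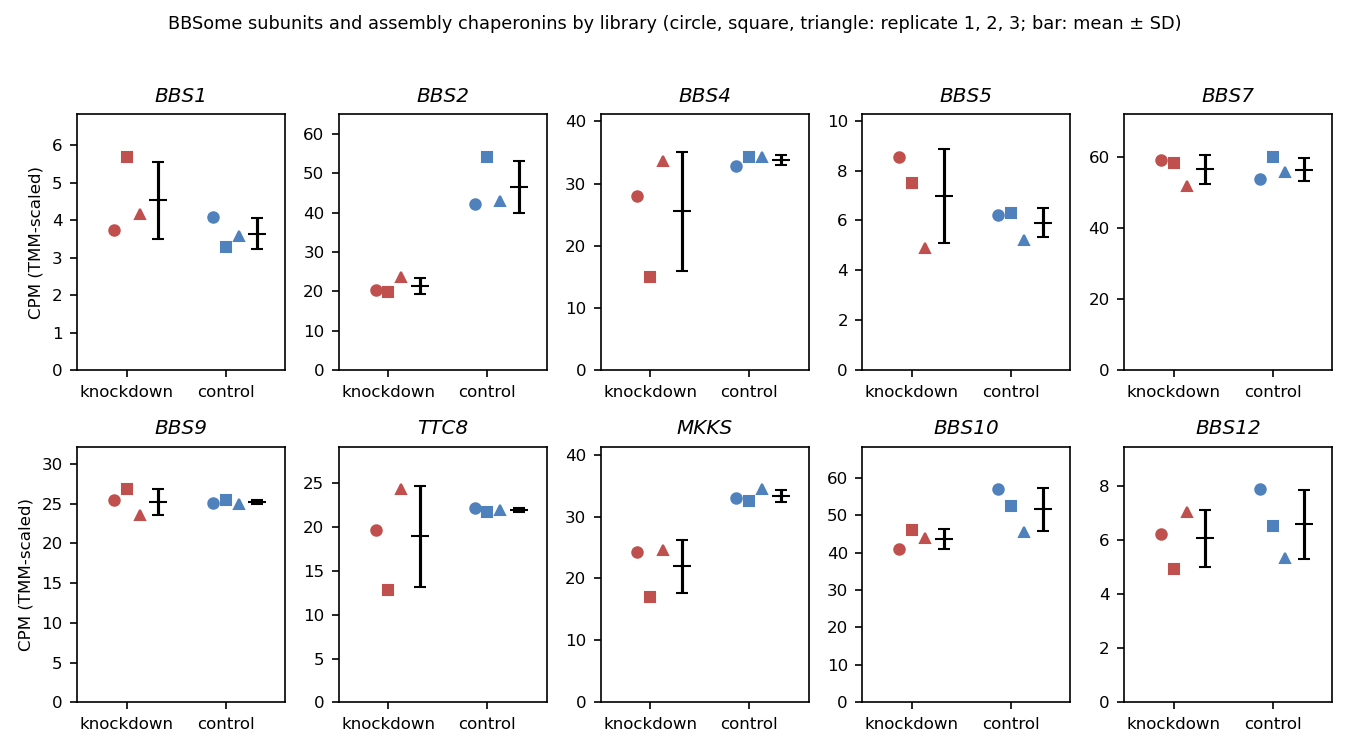
Expression of the 10 members in CPM (linear axes from 0) in each library, with libraries labelled knockdown in red on the left of each panel and controls in blue on the right; symbols mark the replicate and the bar gives mean ± SD over 3 libraries. BBS2 lies between 19.7 and 23.6 CPM in libraries labelled knockdown, below 42.3 to 54.1 CPM in the controls, whereas the groups overlap for BBS7 and BBS9.

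The partners of BBS2 in the core of the complex showed no such gap. BBS7 (chromosome 4, 121824440 to 121870497, minus strand), the other beta-propeller of the pair, stood at 59.1, 58.3 and 51.8 CPM in libraries labelled knockdown, against 53.7, 59.9 and 55.6 CPM in the controls. BBS9 (chromosome 7, 33129244 to 33606068, plus strand), a scaffold subunit, stood at 25.4, 26.8 and 23.5 CPM in libraries labelled knockdown, against 25.1, 25.5 and 24.9 CPM in the controls. For both the groups overlapped and the log2 fold change was 0.00, with a 95% interval of -0.31 to 0.31 for BBS7 (edgeR adjusted p = 0.999) and -0.33 to 0.33 for BBS9 (adjusted p = 0.991).

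BBS4 and TTC8, subunits built of tetratricopeptide repeats, had their lowest values in knockdown 2. BBS4 (chromosome 15, 72686179 to 72738476, plus strand) stood at 28.0, 15.0 and 33.6 CPM in libraries labelled knockdown, against 32.8, 34.3 and 34.2 CPM in the controls. Its log2 fold change was -0.40 (standard error, SE, 0.25, edgeR adjusted p = 0.383). TTC8 (chromosome 14, 88824153 to 88881078, plus strand) stood at 19.7, 12.9 and 24.3 CPM in libraries labelled knockdown, against 22.2, 21.6 and 21.9 CPM in the controls (-0.21, SE 0.22, adjusted p = 0.619). In knockdown 3 TTC8 was above every control, and the groups overlapped for both genes. Without knockdown 2 the values were -0.14 for BBS4 and -0.003 for TTC8, and without knockdown 3 they were -0.66 for BBS4 and -0.43 for TTC8. Knockdown 2 is the library with 37.5% of reads in no counted feature, and the part of that share in these values was not tested.

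BBS1 and BBS5 had few reads. BBS1 (chromosome 11, 66510606 to 66533627, plus strand), the subunit that binds ARL6, stood at 3.73, 5.69 and 4.17 CPM in libraries labelled knockdown, against 4.09, 3.28 and 3.57 CPM in the controls (log2 fold change 0.31, SE 0.27, edgeR adjusted p = 0.532). BBS5 (chromosome 2, 169479178 to 169506655, plus strand), a subunit with domains that bind membrane lipids, stood at 8.54, 7.49 and 4.91 CPM in libraries labelled knockdown, against 6.20, 6.29 and 5.24 CPM in the controls (0.24, SE 0.26, adjusted p = 0.630). The libraries labelled knockdown spread around the controls, with knockdown 3 the lowest of all 6 for BBS5. BBS1 had 66 to 107 reads per library. A gene annotated on the same strand, AP002748.4, shares 53.9% of the exon bases of BBS1, and AC093899.2 shares 21.9% of those of BBS5. Both had 0 or 1 read in each library. How reads in shared exons were counted cannot be seen in the table, so the levels of BBS1 and BBS5 are uncertain.

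**Figure D2:**
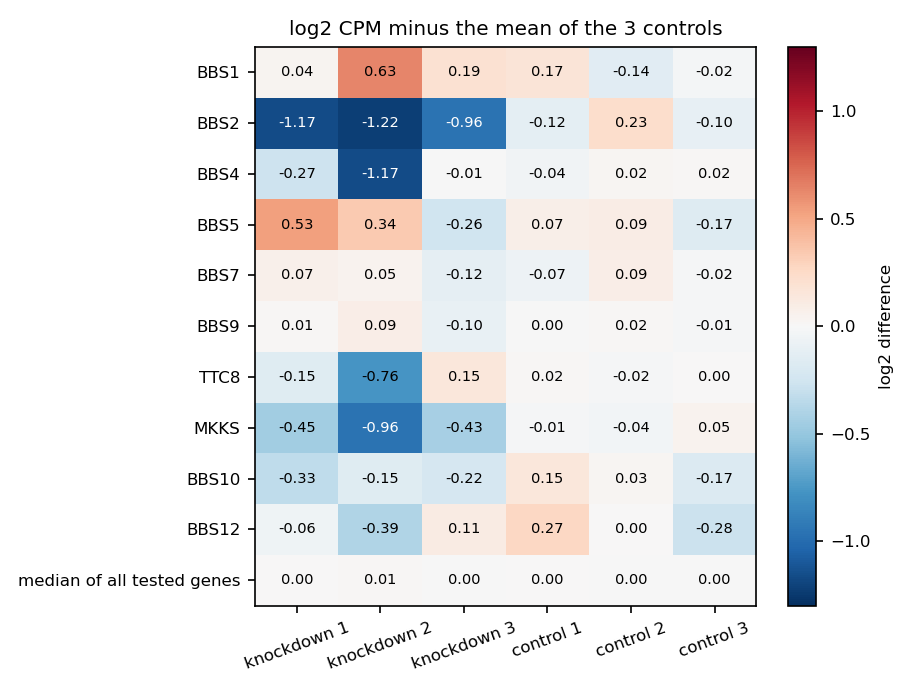
Difference of log2 CPM (prior count 2) from the mean of the 3 controls for each member (rows) in each library (columns), libraries labelled knockdown on the left; red is higher and blue lower. BBS2 is at -1.17, -1.22 and -0.96 in the libraries labelled knockdown, while BBS4, TTC8 and MKKS have their lowest value in knockdown 2, where the median of all tested genes is 0.01.

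Of the chaperonin-like assembly factors, MKKS had the clearest gap. MKKS (chromosome 20, 10401009 to 10434222, minus strand) encodes a protein of the chaperonin fold, also called BBS6. A gene on the same strand that is not used here, AL034430.1, shares 12.7% of its exon bases. MKKS stood at 24.3, 17.1 and 24.6 CPM in libraries labelled knockdown, against 33.0, 32.5 and 34.4 CPM in the controls. The groups did not overlap, and the controls lay within 2 CPM of each other. The means were 21.97 ± 4.25 CPM in libraries labelled knockdown and 33.3 ± 0.991 CPM in the controls, with a log2 fold change of -0.60, a 95% interval of -0.99 to -0.21 and an edgeR adjusted p of 0.120. For MKKS, DESeq2 gave an adjusted p of 0.0518 and limma voom 0.113. Of the alternatives run, MKKS passed the threshold only without knockdown 3 (log2 fold change -0.69, edgeR adjusted p = 0.0321), and over all alternatives run its adjusted p ranged from 0.0321 to 0.423.

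BBS10 (chromosome 12, 76344474 to 76348442, minus strand) and BBS12 (chromosome 4, 122732702 to 122744943, plus strand) encode the other members of this vertebrate group. BBS10 stood at 40.8, 46.1 and 44.0 CPM in libraries labelled knockdown, against 56.9, 52.3 and 45.5 CPM in the controls (log2 fold change -0.24, 95% interval -0.57 to 0.09, edgeR adjusted p = 0.378). Only knockdown 2, at 46.1 CPM, exceeded the lowest control. BBS12 stood at 6.22, 4.94 and 7.02 CPM in libraries labelled knockdown, against 7.86, 6.51 and 5.34 CPM in the controls (-0.12, SE 0.25, adjusted p = 0.819), and its groups overlapped throughout. Summed over the 3 assembly factors, the level was 71.3, 68.1 and 75.6 CPM in libraries labelled knockdown, against 97.7, 91.3 and 85.2 CPM in the controls.

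Among the 9 members other than BBS2, edgeR called 0 higher and 0 lower, as it did for 0% of all genes. DESeq2, which called 3.06% of all genes higher and 3.21% lower, also called 0 of the 9, and so did limma voom (0% of all genes). Without the filter on low counts edgeR called 0 of the 9, where it called 1.6% of all genes higher and 2.03% lower, and with the replicate number as a block 0 of the 9, where it called 0.0328% and 0.0712%. At an unadjusted edgeR p under 0.05 there was 1 lower member, MKKS, and 0 higher, where 10.6% of all genes were lower and 9.93% higher. Libraries did not overlap between groups for 1 member below the controls, again MKKS, and for 0 above, where 14.3% and 12.5% of all tested genes did so. A count of 1 in 9 is near this background. All 10 members passed the filter on low counts.

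**Figure D3:**
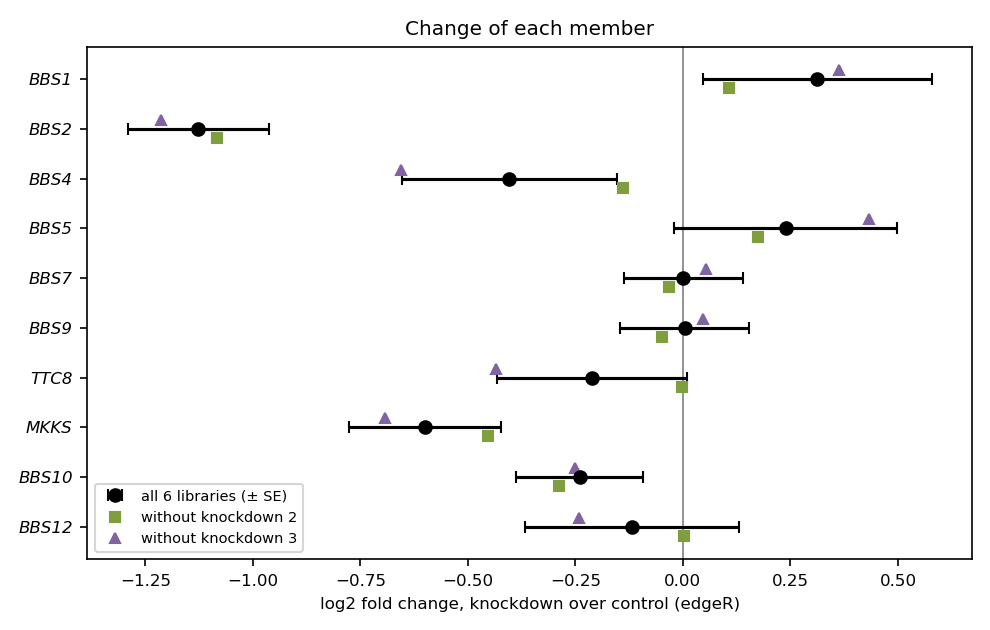
Log2 fold change of each member, libraries labelled knockdown over controls (edgeR), with all 6 libraries (black, ± standard error) and without knockdown 2 (green) or knockdown 3 (purple). BBS2 lies between -1.21 and -1.08 in these fits, MKKS lies between -0.69 and -0.45, and BBS4 and TTC8 move toward 0 when knockdown 2 is left out. BBS2 was picked on this contrast, so its bar is no test.

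Ratios of members within a library do not depend on how libraries are scaled. BBS2 took 12.4%, 13.5% and 14.2% of the reads of the 7 subunits in the libraries labelled knockdown, against 22.7%, 26.4% and 22.8% in the controls. The exact 95% binomial intervals ran from 11.2% to 15.5% over the libraries labelled knockdown and from 21.4% to 27.7% over the controls, and cover counting error only. For each read of BBS7 there were 0.346, 0.339 and 0.456 reads of BBS2 in the libraries labelled knockdown, against 0.788, 0.903 and 0.772 in the controls. As BBS2 was picked on these counts, its share and ratio are a description and no further support. The other 6 subunits together stood at 144, 126 and 142 CPM in libraries labelled knockdown, against 144, 151 and 145 CPM in the controls. MKKS took 34.0%, 25.0% and 32.5% of the reads of the 3 assembly factors in the libraries labelled knockdown, against 33.8%, 35.6% and 40.3% in the controls, and these shares overlapped.

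**Figure D4:**
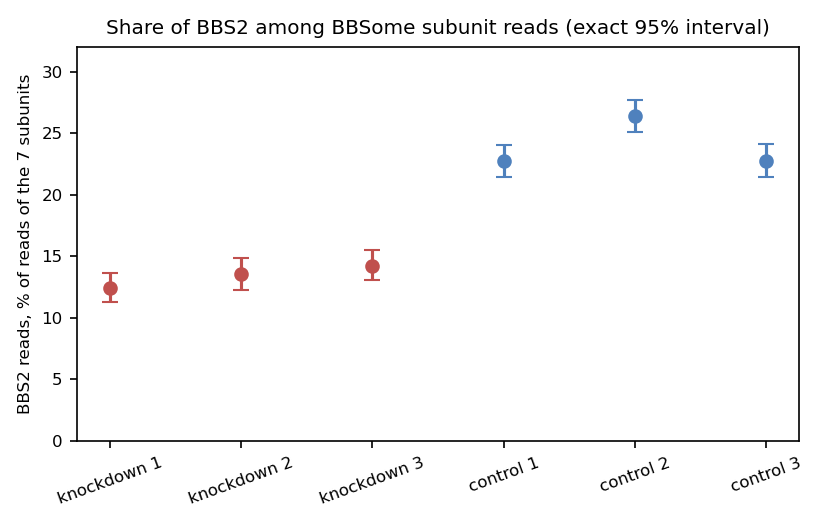
Share of BBS2 among the reads of the 7 BBSome subunits in each library (points, in percent, axis from 0), with exact 95% binomial intervals for counting error; libraries labelled knockdown are red and on the left, controls blue. The shares are 12.4% to 14.2% in the libraries labelled knockdown and 22.7% to 26.4% in the controls.

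Levels of different members can be compared only per length. As TPM (reads per annotated exon length, scaled to the same total in each library), BBS10 and BBS7 were the most abundant members, at 38.2 ± 2.36 and 36.7 ± 1.63 TPM in the libraries labelled knockdown and 45.2 ± 7.67 and 36.6 ± 4.21 TPM in the controls (SD, n = 3 each). Their libraries overlapped in both groups. BBS4 came next at 19.6 ± 7.91 TPM in the libraries labelled knockdown and 25.5 ± 1.90 TPM in the controls. In the controls the order went on with BBS2 (17.5 ± 3.59 TPM), MKKS (14.98 ± 0.692), BBS9 (12.7 ± 1.08), TTC8 (10.98 ± 0.782), BBS12 (6.04 ± 1.45), BBS5 (4.09 ± 0.688) and BBS1 (1.86 ± 0.240). Of these neighbours, BBS2 and MKKS overlapped, as did BBS12 and BBS5, and the others did not. Overlap here compares the ranges over libraries. Within each control library BBS10 was above BBS7, BBS2 above MKKS and BBS12 above BBS5. In the libraries labelled knockdown BBS2 was at 8.05 ± 1.09 TPM and ranked 7 instead of 4, behind BBS9, MKKS and TTC8. Its libraries overlapped those of TTC8 and MKKS there. In knockdown 2 BBS2 (7.19 TPM) was above TTC8 (6.25 TPM), so this rank is not resolved. MKKS was above BBS2 in each library labelled knockdown.

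The order rests on the length used. The annotated exons of BBS2 cover 8337 bases, but its principal transcript has 2963. With principal transcripts BBS2 was at 15.5 ± 1.59 TPM in the libraries labelled knockdown and 33.8 ± 6.50 TPM in the controls. By mean it then ranked 4 in the libraries labelled knockdown, where its values overlapped those of BBS9, and 1 in the controls. It was above BBS7 only in control 2 and below it in controls 1 and 3, so the first rank is not resolved. With only the exon bases that no other gene on its strand shares, BBS1 was at 5.02 ± 0.999 TPM in libraries labelled knockdown and 4.03 ± 0.521 TPM in controls and still ranked 10 in both groups.

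BBIP1 and ARL6, the closest partners outside the member list, had overlapping groups. BBIP1, the smallest BBSome subunit, stood at 33.5, 28.0 and 40.6 CPM in libraries labelled knockdown, against 35.2, 36.3 and 35.2 CPM in the controls (log2 fold change -0.06, 95% interval -0.43 to 0.30, edgeR adjusted p = 0.856). ARL6, which recruits the BBSome to membranes, stood at 20.6, 13.5 and 16.3 CPM in libraries labelled knockdown, against 20.3, 21.9 and 18.9 CPM in the controls (-0.28, SE 0.19, adjusted p = 0.435). CCDC28B, a modifier of Bardet-Biedl syndrome, had the widest gap among 10 partners and other disease genes, at 3.68, 6.11 and 7.39 CPM in libraries labelled knockdown, against 10.2, 11.9 and 11.5 CPM in the controls (-0.96, SE 0.27, adjusted p = 0.110). DESeq2 called it (adjusted p = 0.0160), where it called 3.21% of all genes lower. SDCCAG8, a centrosomal protein, was the other one of the 10 that lay below every control, as 14.3% of all tested genes did. It averaged 38.95 ± 4.58 CPM under the knockdown label and 46.1 ± 2.67 CPM in controls (log2 fold change -0.24, edgeR adjusted p = 0.381). RAB8A, a GTPase of ciliary membrane traffic, averaged 167 ± 23.1 CPM under the knockdown label and 143 ± 5.01 CPM in controls, and PCM1, the centriolar satellite scaffold, 326 ± 67.4 CPM under the knockdown label and 294 ± 39.9 CPM in controls. The median log2 fold change of the 10 was -0.08, against 0.02 over all tested genes.

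TRiC, the cytosolic chaperonin with which the assembly factors act, had far more reads than they did. Its 8 subunits summed to 6424, 3674 and 6155 CPM in libraries labelled knockdown, against 5302, 4717 and 5177 CPM in the controls. Knockdown 2 was the lowest of the 6 libraries and knockdown 1 and 3 the highest, so the groups overlapped. The subunit with the highest mean CPM, CCT5, averaged 1133 ± 340 CPM under the knockdown label and 909 ± 94.7 CPM in controls (log2 fold change 0.32, SE 0.23, edgeR adjusted p = 0.449). None of the 8 subunits lay wholly above or below the controls, where 12.5% and 14.3% of all tested genes did so. Their median log2 fold change was 0.04, and with 1 library left out it lay between -0.08 and 0.26.

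Genes of intraflagellar transport, which moves the BBSome along the cilium, had mostly negative log2 fold changes. Of 17 genes of train B, 13 had a negative log2 fold change, as did 8804 of all 18267 tested genes. Of the 17, 10 lay below every control, where 14.3% of all tested genes did so. IFT74 stood at 12.8, 13.7 and 23.0 CPM in libraries labelled knockdown, against 29.4, 31.5 and 25.1 CPM in the controls (log2 fold change -0.80, SE 0.23, edgeR adjusted p = 0.117). IFT88, needed to build cilia, stood at 11.1, 7.55 and 16.6 CPM in libraries labelled knockdown, against 22.2, 23.4 and 19.8 CPM in the controls (-0.89, SE 0.26, adjusted p = 0.117). Knockdown 3 was the nearest to the controls for both. IFT81, the partner of IFT74 in tubulin binding, averaged 34.4 ± 5.14 CPM under the knockdown label and 49.7 ± 5.23 CPM in controls (adjusted p = 0.126). IFT57, with the highest mean CPM of the 17, was at 62.6 ± 10.5 CPM under the knockdown label and 62.1 ± 3.42 CPM in controls. The median log2 fold change of the 17 was -0.37, and leaving out 1 library moved it between -0.48 and -0.24.

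No gene of train B passed edgeR's test on all 6 libraries. At an unadjusted edgeR p under 0.05, 8 were lower and 0 higher, where 10.6% of all genes were lower and 9.93% higher. DESeq2 called 2 of the 17 lower (IFT74 and IFT88), where it called 3.21% of all genes lower. The limma voom test called 0 of the 17 and 0% of all genes. Without knockdown 3 edgeR called 5 of 17 lower and 0 higher, where 8.3% of all genes were called lower and 6.46% higher. In the 6 genes of train A, 2 lay below every control (14.3% of all tested genes did so), IFT140 (15.2 ± 3.74 CPM under the knockdown label and 22.6 ± 2.30 CPM in controls) and IFT122 (10.7 ± 2.23 CPM under the knockdown label and 15.3 ± 0.771 CPM in controls), with a median log2 fold change of -0.32. TTC21B, with the highest mean CPM of train A, was at 73.7 ± 3.12 CPM under the knockdown label and 71.0 ± 9.97 CPM in controls. Among 9 motor genes 3 lay below every control, against the same 14.3% of all genes, all of the dynein that returns trains to the base. DYNC2H1, its heavy chain, averaged 85.1 ± 21.0 CPM under the knockdown label and 122 ± 17.5 CPM in controls, WDR34 27.5 ± 6.77 CPM under the knockdown label and 41.8 ± 4.57 CPM in controls, and DYNC2LI1 20.7 ± 3.79 CPM under the knockdown label and 29.1 ± 1.98 CPM in controls. None of these passed edgeR on all 6 libraries (adjusted p from 0.141 to 0.175).

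**Figure D5:**
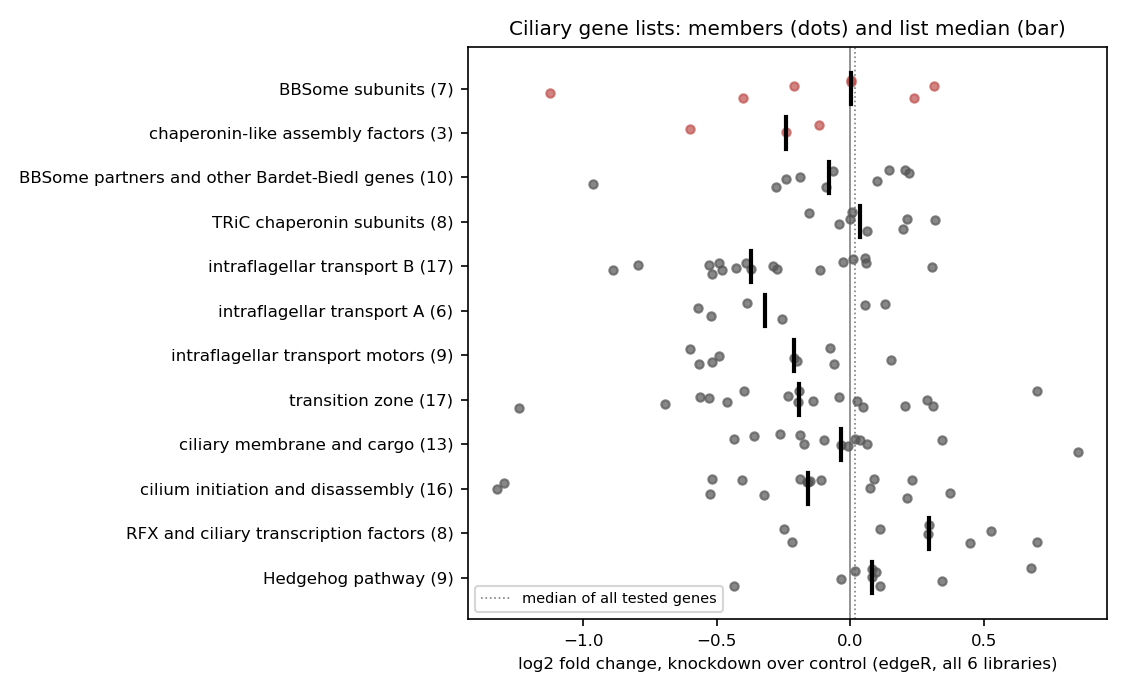
Log2 fold change (libraries labelled knockdown over controls, edgeR, all 6 libraries) of each tested gene in 12 lists, with the number tested in brackets; red dots are the 10 members, grey dots the genes of related lists, black bars list medians, and the dotted line the median of all tested genes at 0.02. The genes of intraflagellar transport B centre on -0.37, and the BBSome subunits on 0.00.

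At the transition zone, the gate at the base of the cilium, genes went both ways. Of 17 genes, 6 lay below and 2 above every control, where 14.3% and 12.5% of all tested genes did so. B9D1, a subunit of the gate's B9 module, stood at 3.34, 2.87 and 5.49 CPM in libraries labelled knockdown, against 8.67, 9.39 and 9.62 CPM in the controls (log2 fold change -1.24, SE 0.28, edgeR adjusted p = 0.0871). TCTN1, a tectonic protein of the gate, stood at 29.01, 34.2 and 39.4 CPM in libraries labelled knockdown, against 55.5, 58.0 and 52.5 CPM in the controls (-0.69, SE 0.16, adjusted p = 0.0874). TMEM216, a membrane protein of the gate, had higher values, at 20.5, 21.7 and 13.98 CPM in libraries labelled knockdown, against 13.2, 10.9 and 10.6 CPM in the controls (0.70, SE 0.21, adjusted p = 0.125). DESeq2, which called 3.21% of all genes lower and 3.06% higher, called these 3 genes, and edgeR none on all 6 libraries. CEP290, with the highest mean CPM of the list, was at 125 ± 6.42 CPM under the knockdown label and 123 ± 9.24 CPM in controls. The median of the 17 was -0.19.

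Among genes that start or undo cilia, some mitotic kinases split the libraries labelled knockdown. AURKA, a mitotic kinase that also drives cilium disassembly, stood at 17.2, 15.1 and 91.5 CPM in libraries labelled knockdown, against 100.6, 105.6 and 103.9 CPM in the controls. Knockdown 1 and 2 were far below the controls and knockdown 3 close to them. The log2 fold change was -1.32 (SE 0.55, edgeR adjusted p = 0.214), and without knockdown 3 it was -2.68. PLK1, another mitotic kinase, also had knockdown 3 near the controls, at 12.4, 16.6 and 88.2 CPM in libraries labelled knockdown, against 99.4, 95.1 and 94.0 CPM in the controls. Of the 16 genes of this list 6 lay below every control and 0 above, where 14.3% and 12.5% of all tested genes did so, with a median of -0.16. Others among them were CCP110, which caps the mother centriole (log2 fold change -0.32, edgeR adjusted p = 0.220), and FBF1, of the distal appendages (7.56 ± 1.53 CPM under the knockdown label and 10.8 ± 1.18 CPM in controls). The gene of the list with the highest mean CPM, CEP89, was at 132 ± 20.9 CPM under the knockdown label and 112 ± 11.1 CPM in controls.

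Of 16 genes for membrane proteins that the cilium holds or the BBSome carries, 13 passed the filter, with a median log2 fold change of -0.04, 1 gene below every control and 1 above, where 14.3% and 12.5% of all tested genes did so. SSTR3 and HTR6, receptors that serve as BBSome cargo in neurons, were under 0.5 CPM in every library. PKD1, the polycystin of kidney cilia, was the gene above, at 46.3, 50.5 and 49.3 CPM in libraries labelled knockdown, against 42.6, 37.2 and 35.3 CPM in the controls (edgeR adjusted p = 0.217), and PKD2, its channel partner, the gene below, at 28.1 ± 3.02 CPM under the knockdown label and 36.1 ± 6.80 CPM in controls (adjusted p = 0.276). DRD1, a dopamine receptor, was at 2.29 ± 1.05 CPM under the knockdown label and 1.27 ± 0.292 CPM in controls. ADCY3, the adenylyl cyclase of cilia, had the highest mean CPM, at 68.8 ± 10.1 CPM under the knockdown label and 67.1 ± 3.86 CPM in controls.

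The related lists together hold 115 genes, among them the 8 TRiC subunits, the RFX and related factors and the Hedgehog genes. Of the 115 genes, 111 were tested and 0 passed edgeR on all 6 libraries. Their libraries lay below every control for 31 genes and above for 6, where 14.3% and 12.5% of all tested genes did so. At an unadjusted p under 0.05 there were 21 lower and 5 higher, where 10.6% and 9.93% of all genes were. DESeq2 called 5 lower and 2 higher, against 3.21% and 3.06% of all genes, and limma voom 0. Without knockdown 3 edgeR called 16 lower and 4 higher, against 8.3% and 6.46% of all genes. Their median log2 fold change was -0.10.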

How the data were processed

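Raw read counts, as the authors deposited them, cover Ensembl genes in 6 total RNA libraries (3 labelled MOCS2 knockdown, 3 control). Stranded libraries were made after Ribo-Zero Gold depletion, per the labels' protocols. bcl2fastq 2.18, TopHat2 2.0.13, HTSeq and the hg38 build are named, per the submitters' processing notes. The sources used here give neither HTSeq's version nor its strand setting or annotation release. The 5 rows that name no gene entered neither library sizes nor tests. Of uniquely aligned reads, 21.5% to 37.5% were assigned to no counted feature and 2.87% to 3.70% were ambiguous.

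Symbols, positions and exon lengths came from GENCODE release 29, which matched 57055 of 60675 identifiers. All 165 entries of 16 gene lists were matched. Gene counts went into edgeR 4.0.16 under R 4.3.3 (TMM factors, filterByExpr, quasi-likelihood test, Benjamini-Hochberg 0.05 over 18267 genes). CPM is TMM-scaled, with a prior count of 2 on the log2 scale. Standard errors were derived from the fitted coefficient and its F statistic, and 95% intervals use edgeR's total degrees of freedom. DESeq2 1.42.0 gave no adjusted p for 1774 genes. Fits were tested on simulated data. No pair of replicates agreed within sampling noise, with chi-square per degree of freedom between 11.4 and 74.1.

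The genes named are the 10 members, MOCS2, BBIP1, ARL6, and of each list up to 3 genes with the smallest p and the 1 with the highest mean CPM. Also named are neighbours and overlapping genes of BBS2 and the members, and the 5 protein-coding genes most like BBS2 with a mean of at least 2 CPM. Some items that this rule names are not reported here. PLK1, SSTR3, HTR6, FOXJ1, MYB, RFX3 and the marker genes named at low levels were added after their values were seen. The members and lists were chosen with earlier results of these data known. Alternatives were DESeq2 size factors, DESeq2, limma voom (limma 3.58.1), no filter, at least 1 CPM in 3 libraries, the replicate number as a block, each library left out, and other lengths for TPM. The last 2 lengths (unshared exons and principal transcripts) were added after seeing the data.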

Additional observations from a re-analysis of the deposited data

How the results depend on the processing

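With other settings the genes called over all genes numbered 559 higher and 586 lower by DESeq2, 694 and 880 with no filter, and 6 and 13 with the replicate number as a block. Leaving out 1 library gave 0 to 1232 higher and 0 to 1583 lower, the upper ends without knockdown 3, and at most 4 without any other. Members other than BBS2 called lower numbered 0 to 1 with 1 library left out, the 1 without knockdown 3, where 8.3% of all genes were called lower. In the related lists DESeq2 called 2 higher and 5 lower, no filter 1 and 7, and leaving out 1 library 0 to 4 and 0 to 16. Of all genes, DESeq2 called 3.06% higher and 3.21% lower, and edgeR 1.6% and 2.03% with no filter and 6.46% and 8.3% without knockdown 3. BBS2 kept its direction in every fit, from -1.21 to -1.01 on the log2 scale, and MKKS from -0.69 to -0.45. BBS7 turned to -0.00097 with voom, -0.027 unfiltered and -0.00054 under the replicate block, and ran from -0.039 to 0.053 with 1 library left out. BBS9 turned to -0.024 with no filter and ran from -0.049 to 0.046, and BBS12 from -0.26 to 0.029. IFT57 turned to -0.0027 with voom, -0.0099 unfiltered and -0.0015 under the replicate block, and CEP290 to -0.00037 with no filter. With 1 library left out the sign also changed for IFT57 (-0.13 to 0.11), CEP290 (-0.033 to 0.081), MOCS2 (-0.094 to 0.027), BBIP1 (-0.21 to 0.051), TTC21B (-0.036 to 0.16), ADCY3 (-0.038 to 0.14) and OGFOD1 (-0.079 to 0.056), and, among genes of other lists, HHIP (-0.11 to 0.55), COL1A1 (-0.20 to 0.38), DCN (-0.997 to 0.077) and LYZ (-0.28 to 0.086). The cause was not tested. The rank in the level order differed for 4 members with the longest transcript, 5 with the principal transcript and 3 when ranked in libraries labelled knockdown.

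The labels give both groups replicate numbers 1 to 3, but deviations from the group means correlated at 0.11, -0.17 and -0.12 for the same numbers, so the numbers were not taken to pair the libraries, and the block changed the call of no member. BBS1 (66 to 107 reads per library), BBS5 (93 to 151) and BBS12 (93 to 175) are the members whose values depth limits most.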

Other observations

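The 4 nearest tested genes around BBS2 on chromosome 16 had log2 fold changes between -1.51 and -0.01. OGFOD1, an oxygenase gene whose exons overlap those of BBS2 by 220 bases on the opposite strand, stood at 116, 109 and 95.7 CPM in libraries labelled knockdown, against 115, 106 and 103 CPM in the controls (log2 fold change -0.01, 95% interval -0.33 to 0.30, edgeR adjusted p = 0.967). NUDT21, a factor of messenger RNA 3′ end processing that lies beyond OGFOD1, averaged 213 ± 21.4 CPM under the knockdown label and 248 ± 19.7 CPM in controls (-0.22, adjusted p = 0.430). On the other side the nearest tested genes were the metallothioneins MT2A, at 8.46 ± 0.960 CPM under the knockdown label and 11.2 ± 2.69 CPM in controls (-0.40, adjusted p = 0.348), and MT1F, at 0.356 ± 0.236 CPM under the knockdown label and 1.03 ± 0.373 CPM in controls (-1.51, adjusted p = 0.151). MT1F lay below every control, at low counts. ZDHHC24, an acyltransferase gene that overlaps BBS1 on the opposite strand, averaged 10.7 ± 0.823 CPM under the knockdown label and 13.2 ± 1.59 CPM in controls (-0.30, adjusted p = 0.399). Whether reads were counted by strand was not given in the sources used here, so values of these overlapping genes are uncertain.

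Among 12478 protein-coding genes with a mean of at least 2 CPM, those whose log2 CPM followed BBS2 most closely over the 6 libraries included IMPACT (Pearson r = 0.995), PCYOX1L (0.993), TSPAN6 (0.991) and ARL2BP (0.991). The libraries fall into the labelled groups for BBS2, so these values are a description with no test. IMPACT, which restrains the stress kinase GCN2, averaged 41.4 ± 1.83 CPM in libraries labelled knockdown and 63.1 ± 5.38 CPM in the controls. ARL2BP, a partner of the GTPase ARL2 that is found at the ciliary base, averaged 60.4 ± 1.42 CPM under the knockdown label and 79.4 ± 2.58 CPM in controls.

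Of 8 tested RFX and related factors, 2 lay above every control and 1 (MYB) below, where 12.5% and 14.3% of all tested genes did so, with a median log2 fold change of 0.29. The 2 with a negative log2 fold change were MYB (-0.25, edgeR adjusted p = 0.502) and RFX3 (-0.22, adjusted p = 0.611). RFX7 stood at 33.8, 36.6 and 36.6 CPM in libraries labelled knockdown, against 23.7, 28.0 and 22.7 CPM in the controls (0.52, SE 0.15, edgeR adjusted p = 0.119). TP73, a factor of multiciliated cells, averaged 15.8 ± 1.51 CPM under the knockdown label and 11.6 ± 1.81 CPM in controls (0.45, adjusted p = 0.229). RFX2 averaged 9.11 ± 1.27 CPM under the knockdown label and 7.43 ± 0.543 CPM in controls. RFX5, with the highest mean CPM, averaged 62.4 ± 3.04 CPM under the knockdown label and 57.8 ± 2.46 CPM in controls. In the Hedgehog list KIF7, the kinesin at the ciliary tip, stood at 104, 82.4 and 66.0 CPM in libraries labelled knockdown, against 56.7, 49.8 and 51.4 CPM in the controls (0.68, SE 0.18, adjusted p = 0.105, DESeq2 adjusted p = 0.0220). The Hedgehog receptor PTCH1 averaged 20.4 ± 6.49 CPM under the knockdown label and 27.5 ± 4.48 CPM in controls, and the 9 genes of that list had a median of 0.08, with 1 above every control and 0 below, against the same shares of all genes. SPAG6, a motile cilium gene, averaged 10.4 ± 3.497 CPM under the knockdown label and 17.9 ± 1.46 CPM in controls (-0.77, adjusted p = 0.127).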
